A study of Mus musculus with 8 samples.

Results

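The 10 genes described here encode the main glucose carrier and 9 enzymes of glycolysis and lactate formation, namely Slc2a1, Hk1, Hk2, Gpi1, Pfkp, Aldoa, Pgk1, Eno1, Pkm and Ldha. They were chosen by name, all 10 were measured, and they are 10 of the 20189 genes of the deposited table. Messenger RNA was sequenced from wild-type 4T1 cells, which derive from a mouse mammary carcinoma and form lung metastases in mice. Cells were kept for 48 h in medium with serum and either 5 mM acetate or water, the vehicle. Each treatment had 4 libraries, and each acetate library shares an experiment code and a number with 1 vehicle library, so there were 4 pairs. The study used this experiment to ask how a greater supply of acetyl-CoA, which cells can make from acetate, favors metastasis. All cells came from 1 line in culture, and no other line or tumor was measured in this experiment.

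Glycolysis turns glucose into pyruvate in the cytosol. A carrier lets glucose through the plasma membrane, hexokinase traps it as glucose 6-phosphate, phosphofructokinase commits it to the pathway, and the later steps return ATP and NADH. Many carcinoma cells run this pathway fast even with oxygen present and turn the pyruvate into lactate. Most steps can be filled by isozymes from several genes, and many of these genes are known targets of the hypoxia-inducible factor Hif1a and of Myc.

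Known Hif1a binding sites hold the letters ACGTG, and less often GCGTG. Both were searched, on both strands, in the 250 bases before each transcription start listed by RefSeq (GRCm38.p6), because most of the 10 genes moved together across the libraries described below. ACGTG was found before at least 1 start of 6 of the 10 genes (Slc2a1, Hk2, Aldoa, Pgk1, Pkm and Ldha), against 18.5% of all 27025 genes with a start in that list. GCGTG was found for 5 of the 10 (Slc2a1, Hk1, Pfkp, Eno1 and Ldha), against 30.9% of all. The longer CACGTG, which holds ACGTG on both strands and is therefore counted again there, was found only for Ldha among the 10, against 6.86% of all. A count by gene favors genes with several starts, and the 10 genes had 17 windows, against 32851 for all 27025. By window, ACGTG was in 7 of 17 against 16.6% of all, and GCGTG in 7 of 17 against 28.2%. Windows of 1 gene can overlap, as for Aldoa, so the same site can count again. The windows before 4 starts are printed because these genes mark the ends of the results. Ldha alone had treatment groups that did not overlap, Hk2 followed the replicates most steeply among the hexokinases, Pfkp changed most with acetate, and Gpi1 was the gene that did not move the same way in all pairs. Each runs 5′ to 3′ on the strand of its gene and ends at the base before the start, and capitals mark every ACGTG or GCGTG on either strand (read as CACGT or CACGC where it lies on the other strand).
Ldha, chr7:46845554-46845803, plus strand: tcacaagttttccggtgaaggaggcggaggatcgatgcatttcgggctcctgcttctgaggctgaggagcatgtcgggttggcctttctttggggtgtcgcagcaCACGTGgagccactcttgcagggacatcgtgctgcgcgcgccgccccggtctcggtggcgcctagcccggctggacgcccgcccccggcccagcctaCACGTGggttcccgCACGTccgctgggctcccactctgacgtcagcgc
Hk2, chr6:82774455-82774704, minus strand: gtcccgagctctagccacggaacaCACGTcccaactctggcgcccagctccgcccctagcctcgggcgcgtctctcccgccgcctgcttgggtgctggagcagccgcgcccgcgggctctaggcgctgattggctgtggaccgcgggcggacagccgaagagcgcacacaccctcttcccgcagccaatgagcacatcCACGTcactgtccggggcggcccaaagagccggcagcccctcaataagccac
Pfkp, chr13:6648772-6649021, minus strand: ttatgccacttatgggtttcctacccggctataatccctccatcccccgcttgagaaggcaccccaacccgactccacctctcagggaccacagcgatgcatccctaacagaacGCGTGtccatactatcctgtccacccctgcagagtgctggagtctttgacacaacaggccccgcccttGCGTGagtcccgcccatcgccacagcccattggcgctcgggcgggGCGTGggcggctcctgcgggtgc
Gpi1, chr7:34230337-34230586, minus strand: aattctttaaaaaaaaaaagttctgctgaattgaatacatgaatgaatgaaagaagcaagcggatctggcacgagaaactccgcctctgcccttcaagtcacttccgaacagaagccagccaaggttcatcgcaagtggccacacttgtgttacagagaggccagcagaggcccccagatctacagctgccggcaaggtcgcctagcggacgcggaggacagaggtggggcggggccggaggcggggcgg
The Ldha window held 5 matches to ACGTG, with 2 copies of CACGTG giving 4 of them. Hk2 held 2 matches, and Pfkp held 0 matches to ACGTG and 3 to GCGTG. Neither set of letters was in the Gpi1 window. A match is only a run of letters, and the libraries measure no binding.

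Levels below are normalized read counts, the reads of a gene when each library is scaled to a total of 20000000. They are shares of a library, so a change of total RNA per cell could not be seen. Where a level is given per kilobase of exon, the length merges the exons of all transcripts of a gene. Genes with many alternative exons therefore read low on that scale. Libraries held 19895088 to 29305620 reads over the genes of the table. The lowest count behind any value of the 10 genes was 2063 reads, for Pfkp, which gives a counting error of 2.20%. The mammary epithelial markers (Epcam, Krt8, Krt18, Cdh1, Krt19) summed to 42130 to 59632 units in vehicle and 44422 to 60637 in acetate, and 2 of these 5 were called higher with acetate, Krt19 (log2 change 0.40 ± 0.04 SE, adjusted p = 2.54e-04) and Cdh1 (0.15 ± 0.03, adjusted p = 0.00592). Only 2 of 6 leukocyte markers were in the table. They summed to 79.4 to 192 units in vehicle and 69.1 to 187 in acetate, nearly all of it Cd68. The pan-leukocyte gene Ptprc stayed at 0.682 to 3.02 units. The 2 endothelial markers measured of 3 summed to at most 7.06 units. Of 4 fibroblast markers 3 were measured, with sums of 229 to 1523 in vehicle and 394 to 1998 in acetate. All 3 had a log2 change above 0 (median 0.72), and 2 were called higher with acetate. Nearly all of the sum was Pdgfra (log2 change 0.52 ± 0.06 SE, adjusted p = 3.72e-04), while Pdgfrb went from a mean of 10.1 to 23.3 units (1.40 ± 0.29, adjusted p = 0.0119) and Dcn was between 0 and 14.5 units. The part of these genes in the results below was not tested.

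With acetate the mean log2 changes of the 10 genes were small and all above 0. Of the 10 genes, 5 passed the threshold (limma on log2 values with the replicate number as a block, two-sided, adjusted over all genes, p under 0.05), and all 5 were higher: Hk1, Hk2, Pfkp, Pkm and Ldha. Of all 20189 genes, 5.99% were called higher and 2.65% lower, and among the 4808 genes with a mean above 1000 units, where all 10 lie, 9.38% were called higher. In 9 of the 10 the acetate library exceeded its vehicle library in 4 of 4 pairs, against 16.7% of all genes. The median log2 change was 0.10 over the 10 genes, 0.02 over all genes and -0.01 over those above 1000 units. By pair, the median of the 10 was 0.04, 0.09, 0.16 and 0.10 for replicates 1 to 4. Together the 10 genes took 1.03% ± 0.116 (SD, n = 4) of the reads in vehicle and 1.10% ± 0.140 in acetate.

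These calls, like those of all genes, depended on the pairing and on replicates 2, 3 and 4. Without the block none of the 10 passed, nor did any of all 20189 genes, and at an unadjusted p under 0.05 there were 0 of the 10 and 353 of all. Leaving out replicate 1 gave 7 calls, with Gpi1 and Aldoa added, but only Pfkp kept its call without replicate 2 or without replicate 4, and none did without replicate 3. Over all 20189 genes, 1209 were called higher in the main fit and 1103 without replicate 1. Without replicates 2, 3 and 4 in turn there were 471, 331 and 402, so the loss was not particular to the 10. With libraries scaled by median-of-ratios size factors, 2 genes (Hk1 and Pfkp) were called, against 4.95% of all genes called higher, and the median of the 10 was 0.08. That scaling changed the balance of all calls, of which 54.9% were higher against 69.3% in the values as deposited. All 10 log2 changes were above 0 in each of the alternative fits.

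**Figure D1:**
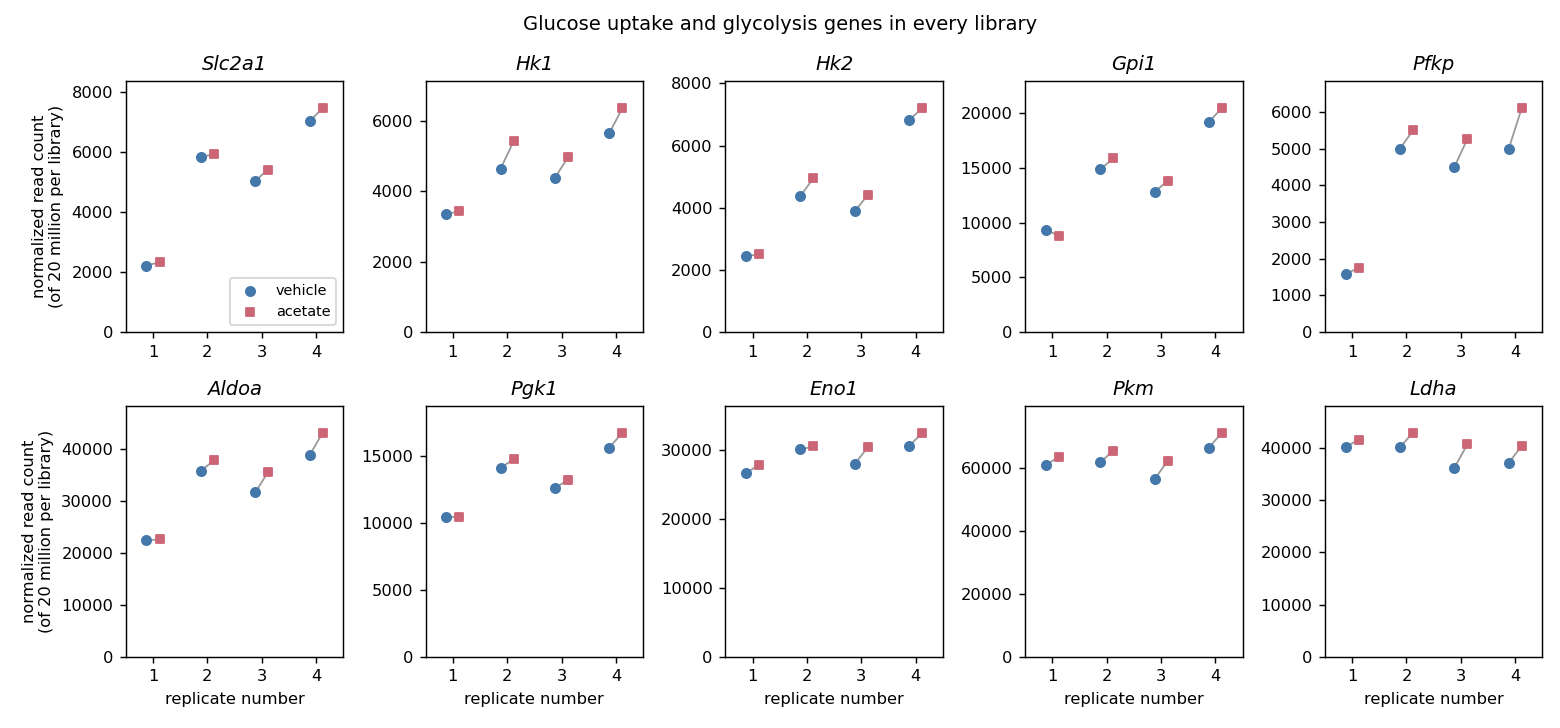
Normalized read counts (of 20000000 per library) of the 10 genes on the vertical axes against replicate number on the horizontal axes. Circles are vehicle libraries, squares acetate libraries, and a line joins each pair. All lines rise except that of Gpi1 in replicate 1, and the steps are small beside the distance between replicates for Slc2a1, Hk2, Gpi1 and Pfkp.

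Slc2a1 encodes the carrier that brings glucose into most cells (chromosome 4, 119108711 to 119137983, plus strand, identifier ENSMUSG00000028645). Its level was 2221, 5847, 5056 and 7031 units in vehicle replicates 1 to 4 and 2332, 5933, 5424 and 7478 units in acetate. Both libraries of replicate 1 were the lowest, and the groups overlapped over nearly their whole range. The difference was 5.01% (95% interval 0.903 to 9.29, log2 0.07 ± 0.03 SE) and did not pass (adjusted p = 0.133), though the acetate library was the higher in 4 of 4 pairs. Slc2a1 made up 93.8% ± 1.13 (SD, n = 4) of the 6 glucose carrier genes that were summed per kilobase of exon in vehicle, and 92.7% ± 0.772 in acetate. That share was lower with acetate in all 4 pairs, by 1.09 percentage points ± 0.580, with an exact two-sided sign-flip permutation p of 0.125, the smallest that 4 pairs allow. Slc2a9, which carries urate and hexoses, rose from 264 ± 130 to 316 ± 147 units (log2 0.27 ± 0.06 SE, adjusted p = 0.0129). The high-affinity carrier Slc2a3 lay between 0 and 62.5 units (adjusted p = 0.403).

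Hexokinase traps glucose in the cell, and 4T1 cells carried comparable amounts of both main isozymes. Hk1 is the widely expressed form (chromosome 10, 62268855 to 62379908, minus strand, ENSMUSG00000037012). It stood at 3347, 4650, 4394 and 5665 units in vehicle and at 3446, 5429, 4975 and 6374 units in acetate. The acetate library was above its partner in all 4 pairs, with the smallest step in replicate 1, and the groups overlapped. Hk1 rose by 11.2% (95% interval 5.99 to 16.8, log2 0.15 ± 0.03 SE, adjusted p = 0.0125).

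Hk2 is the form that many tumors induce and that is bound by mitochondria (chromosome 6, 82725025 to 82774454, minus strand, ENSMUSG00000000628). Its vehicle libraries held 2443, 4383, 3883 and 6817 units and its acetate libraries 2507, 4952, 4421 and 7211. Replicate 4 was the highest and replicate 1 the lowest in both treatments. Hk2 rose by 8.70% (3.66 to 14.0, log2 0.12 ± 0.03 SE, adjusted p = 0.0354). The log2 changes of Hk1 and Hk2 differed by 0.03 ± 0.04 (SD of 4 pairs, Hk1 the larger in 3 of 4, exact permutation p = 0.375), so a difference between them was not shown. Per kilobase of exon, Hk1 made up 43.1% ± 5.02 of the hexokinase genes in vehicle and 43.7% ± 4.42 in acetate. Across replicates that share ran from 48.9% in vehicle replicate 1 down to 36.8% in vehicle replicate 4, where Hk2 was highest. Adpgk, an ADP-dependent glucokinase, was the 1 gene of the wider pathway called lower (log2 -0.14 ± 0.04 SE, adjusted p = 0.0436), and it is named here after its value was seen.

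Gpi1, the isomerase that makes fructose 6-phosphate, was the gene of the 10 whose pairs did not all go one way (chromosome 7, 34201330 to 34230336, minus strand, ENSMUSG00000036427). In vehicle it stood at 9326, 14852, 12826 and 19197 units and in acetate at 8812, 15867, 13785 and 20470. Acetate was the lower library in replicate 1 (log2 -0.08) and the higher in the other 3 pairs. The mean difference was 3.71% (-1.28 to 8.95, log2 0.05 ± 0.03 SE, adjusted p = 0.384). Without replicate 1 it came to a log2 change of 0.10 with an adjusted p of 0.0429.

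Phosphofructokinase, the committing step, held the largest difference of the 10 genes. It also held the largest differences among the isozyme pairs compared, which left out Eno2, Eno3 and the glucose carriers. Pfkp, the platelet-type subunit (chromosome 13, 6579768 to 6648777, minus strand, ENSMUSG00000021196), stood at 1575, 5002, 4502 and 4999 units in vehicle and at 1760, 5502, 5268 and 6114 units in acetate. Replicate 1 was far below the others in both treatments, and each acetate library was above its partner. Pfkp rose by 15.2% (9.87 to 20.7, log2 0.20 ± 0.03 SE, adjusted p = 0.00260), with log2 steps of 0.16, 0.14, 0.23 and 0.29 in the 4 pairs. Its call was lost only without replicate 3 (adjusted p = 0.0526) and without the block. Pitrm1, on the opposite strand, overlaps Pfkp by 748 bases of exon and stood at 3280 units on average, and whether reads were counted by strand is not stated.

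The other 2 phosphofructokinase genes did not move alike. Pfkm, the muscle-type subunit, stood at 404, 759, 651 and 899 units in vehicle and at 622, 947, 904 and 1126 units in acetate. It was higher with acetate in every pair and rose by 35.1% (log2 0.43 ± 0.05 SE, adjusted p = 7.42e-04). Pfkl, the liver-type subunit and the most abundant of the 3, was at 10511 ± 2121 (SD, n = 4) in vehicle and 10432 ± 2186 in acetate (log2 -0.01 ± 0.03 SE, adjusted p = 0.830). In every pair the log2 change of Pfkp exceeded that of Pfkl, by 0.22 ± 0.02 (SD), and the change of Pfkm exceeded that of Pfkl by 0.45 ± 0.16. Both differences have an exact permutation p of 0.125, the smallest possible with 4 pairs.

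Per kilobase of exon the makeup of the 3 genes therefore shifted away from Pfkl. The merged exons measured 13.4 kb for Pfkp, 6.68 kb for Pfkl and 3.34 kb for Pfkm, and the size of each share depends on these lengths. Its share was 76.5% ± 4.11 in vehicle and 72.3% ± 3.51 in acetate, a mean change of -4.18 percentage points ± 0.659 (SD, n = 4) that was negative in all 4 pairs. Pfkp gained 1.40 points ± 0.540, from 13.8% to 15.2%, and Pfkm gained 2.77 points ± 1.14, from 9.67% to 12.4%, each in 4 of 4 pairs. Since shares add to a whole, these 3 changes are not independent, and each has the same exact p of 0.125. The share of Pfkp differed more between replicate 1 and the others than between treatments. Pfkp made up 8.70% in vehicle replicate 1 and 15.4% to 15.8% in vehicle replicates 2 to 4. For Pfkm this was not so, with 8.95% in vehicle replicate 1 and 8.98% to 11.4% in vehicle replicates 2 to 4. None of 5 genes that set fructose 2,6-bisphosphate, the activator of this step, was called (Pfkfb1 to Pfkfb4 and Tigar, median log2 change 0.10), and the inducible Pfkfb3 stood at 667 ± 255 and 722 ± 274 units (adjusted p = 0.411).

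**Figure D2:**
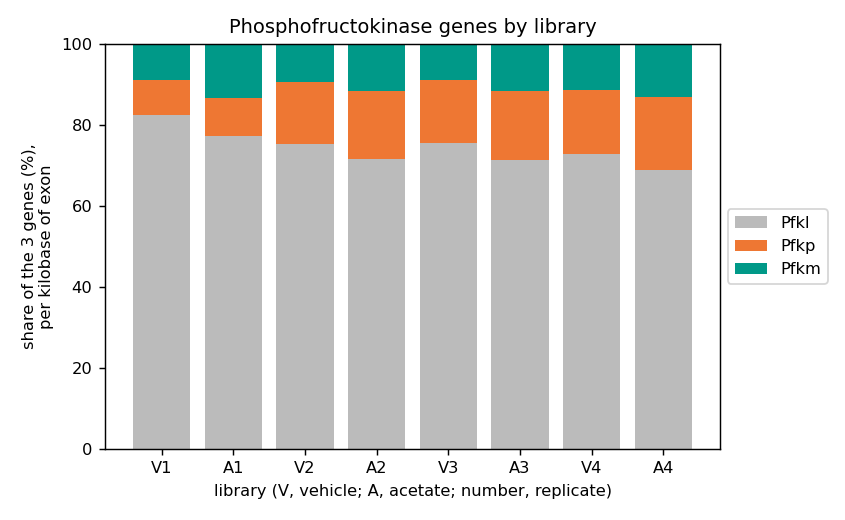
Share (%) of each phosphofructokinase gene in the sum of the 3, per kilobase of exon, on the vertical axis, for the 8 libraries (V, vehicle; A, acetate; number, replicate). In each pair the Pfkl part of the bar is shorter in acetate, with means of 76.5% and 72.3%, and replicate 1 has the smallest Pfkp part.

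Aldoa encodes the aldolase that splits fructose 1,6-bisphosphate (chromosome 7, 126795234 to 126800751, minus strand, ENSMUSG00000030695). It stood at 22397, 35744, 31599 and 38760 units in vehicle and at 22592, 37752, 35612 and 43115 units in acetate. Replicate 1 was the lowest in both groups and had the smallest step. Aldoa lay at the edge of the threshold, with a difference of 7.50% (2.79 to 12.4, log2 0.10 ± 0.03 SE) and an adjusted p of 0.0507. It passed in 5 of 13 blocked fits, among them the one without replicate 1 (0.0155). It made up 98.3% ± 1.02 of aldolase transcripts per kilobase in vehicle, Aldoc the remainder. A neighboring gene that the annotation also names Aldoa (ENSMUSG00000114515), stood at 22.0 to 57.3 units.

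The middle steps without a gene among the 10 (Tpi1, Gapdh and Pgam1) showed differences of similar size, and Bpgm beside them a larger one. Tpi1, the triose phosphate isomerase, differed by 0.08 on the log2 scale (adjusted p = 0.0709) and Gapdh by 0.05 (adjusted p = 0.253), each higher with acetate in 4 of 4 pairs. Pgam1, the phosphoglycerate mutase, rose from 4447 ± 258 to 4911 ± 262 units (SD, n = 4, log2 0.14 ± 0.03 SE, adjusted p = 0.0118). Bpgm, which makes 2,3-bisphosphoglycerate, rose from 229 ± 79.2 to 277 ± 87.0 units (log2 0.28 ± 0.06 SE, adjusted p = 0.0180).

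Pgk1 and Eno1, whose products carry out the first ATP-forming step and the step to phosphoenolpyruvate, did not pass. Pgk1 (chromosome X, 106187100 to 106203699, plus strand, ENSMUSG00000062070) stood at 10433, 14133, 12613 and 15657 units in vehicle and at 10486, 14786, 13260 and 16777 units in acetate. The 2 libraries of replicate 1 were nearly level, and the other pairs lay a little apart. Its difference was 4.32% (0.450 to 8.35, log2 0.06 ± 0.02 SE, adjusted p = 0.171, higher in 4 of 4 pairs). The copy Pgk1-rs7 held at most 23.5 units.

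Eno1 (chromosome 4, 150236721 to 150248879, plus strand, ENSMUSG00000063524) stood at 26568, 30014, 27932 and 30480 units in vehicle and at 27809, 30447, 30351 and 32456 units in acetate. Here replicate 1 was close to the others. Its difference was 5.28% (1.35 to 9.36, log2 0.07 ± 0.03 SE, adjusted p = 0.0981, higher in 4 of 4 pairs). Eno1 and its near copy Eno1b kept an almost fixed ratio of 5.46 to 5.54 in the 4 vehicle libraries, and how reads were split between them is not known, so neither level is certain. Of the other enolases, the neuronal Eno2 rose from 532 ± 385 to 652 ± 449 units (log2 0.41 ± 0.09 SE, adjusted p = 0.0120), and the muscle-type Eno3 rose from 3192 ± 288 to 3781 ± 319 units (log2 0.24 ± 0.05 SE, adjusted p = 0.0135).

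Pkm makes pyruvate and the last ATP of the pathway (chromosome 9, 59656368 to 59679375, plus strand, ENSMUSG00000032294). It was the highest of the 10, at 61066, 61891, 56520 and 66592 units in vehicle and 63612, 65559, 62327 and 71364 units in acetate. Each acetate library was above its partner, and vehicle replicate 4 was above 3 of the acetate libraries. Pkm rose by 6.86% (2.93 to 10.9, log2 0.10 ± 0.02 SE, adjusted p = 0.0343). Its M1 and M2 splice forms share 1 identifier and could not be told apart. A short entry on the same strand, Gm49759, shares 767 bases of exon with it and stood at 2466 units, so some reads may have been divided between the entries.

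Ldha, which reduces pyruvate to lactate, was the most even of the 10 across replicates (chromosome 7, 46841475 to 46855627, plus strand, ENSMUSG00000063229). Vehicle libraries held 40196, 40106, 36156 and 37114 units and acetate libraries 41519, 42922, 40676 and 40406. All acetate libraries were above all vehicle libraries, which was so for no other gene of the 10 and for 0.996% of all genes. Ldha rose by 7.87% (3.65 to 12.3, log2 0.11 ± 0.03 SE, adjusted p = 0.0248). It made up 98.8% of lactate dehydrogenase transcripts per kilobase in both groups, and Ldhb, at 217 ± 79.4 and 248 ± 88.8 units, did not pass (log2 0.19 ± 0.06 SE, adjusted p = 0.0935).

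**Figure D3:**
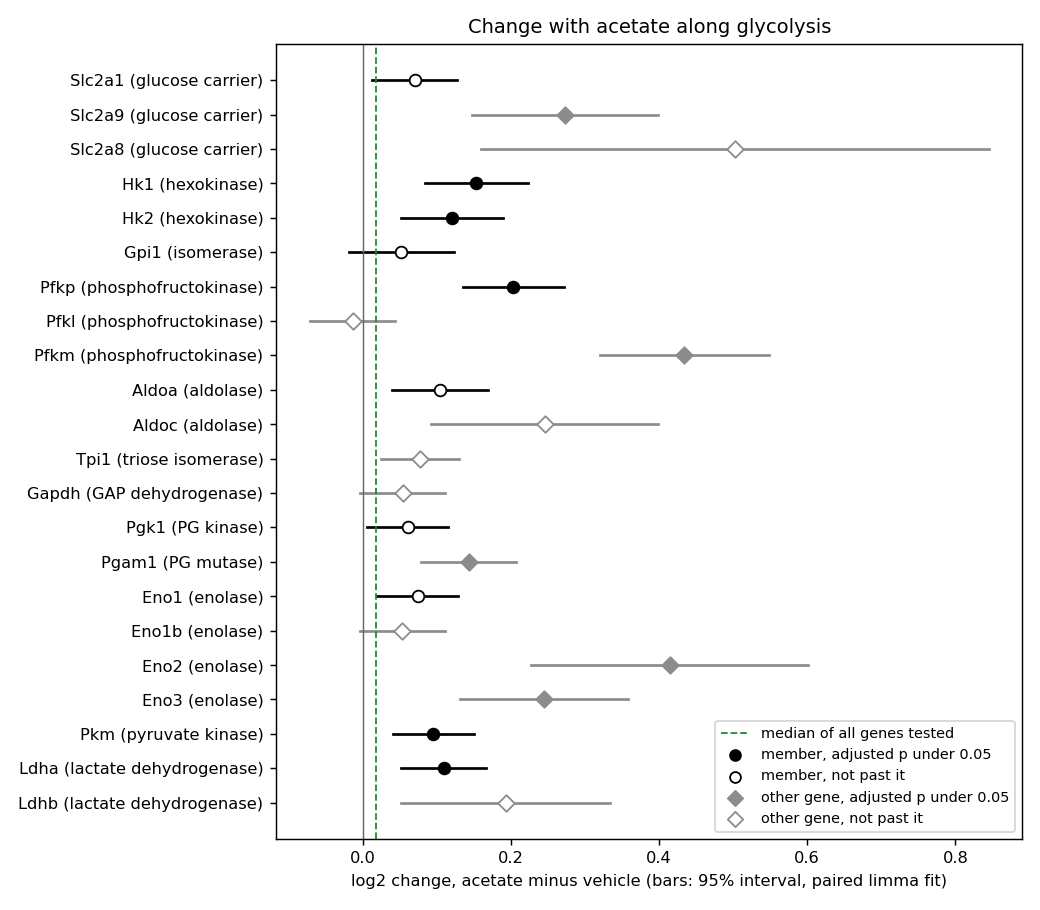
Log2 change, acetate minus vehicle, on the horizontal axis, for genes in pathway order from glucose carrier to lactate dehydrogenase, with 95% intervals from the paired limma fit. Black circles are the 10 genes and gray diamonds other carriers and isozymes, filled where the adjusted p was under 0.05, and the dashed line is the median of all genes tested (0.02). Pfkp is the largest of the 10 at 0.20, and Pfkm and Eno2 reach 0.43 and 0.41.

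The distance between replicates exceeded that between treatments for 9 of the 10 genes. In the log2 values the replicate number held 99.6% of the variance of Slc2a1, 98.7% for Gpi1, 98.4% for Hk2, 97.8% for Pfkp and for Pgk1, 96.6% for Aldoa and 92.6% for Hk1. At the lower end of the pathway it held less, with 77.9% for Eno1, 70.7% for Pkm and 40.4% for Ldha, where treatment held 51.1%. The genes thus formed a graded series rather than a single block. From the lowest to the highest vehicle library, Pfkp differed 3.18-fold, Slc2a1 3.17-fold, Hk2 2.79-fold and Gpi1 2.06-fold, but Pkm only 1.18-fold, Eno1 1.15-fold and Ldha 1.11-fold. Vehicle replicate 1 held 0.326 times the mean of vehicle replicates 2 to 4 for Pfkp, 0.372 times for Slc2a1 and 0.486 times for Hk2, against 0.990 times for Pkm and 1.06 times for Ldha.

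Genes known to answer to low oxygen differed between the same replicates, and by more. As the mean of their log2 values, each centered on its gene's mean, the 10 glycolysis genes stood at -0.54, 0.10, -0.06 and 0.28 in vehicle replicates 1 to 4. A list of 10 hypoxia genes outside glycolysis stood at -1.92, 0.52, 0.35 and 0.82 in the same libraries. Both lists were lowest in replicate 1 and highest in replicate 4. Ndrg1, a strongly oxygen-regulated gene, ran from 1309 units in vehicle replicate 1 to 19472 in vehicle replicate 4, and the glucose-responsive Txnip ran from 292 to 5882. The part of oxygen, glucose or cell density in these distances was not tested, and the labels give none of them.

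**Figure D4:**
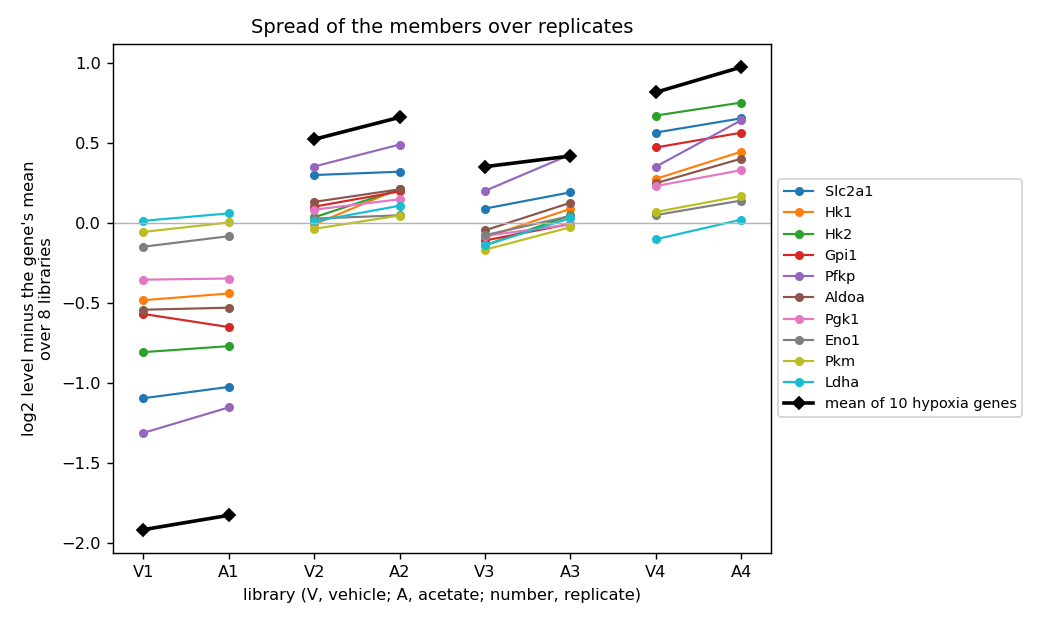
Log2 level minus the gene's mean over 8 libraries, on the vertical axis, for each library in pair order on the horizontal axis (V, vehicle; A, acetate; number, replicate). Colored lines are the 10 genes, joined within pairs, and black diamonds the mean of 10 hypoxia genes, which run from -1.92 in vehicle replicate 1 to 0.97 in acetate replicate 4. The glycolysis genes fan out in replicate 1, from Pfkp at the bottom to Ldha at the top.

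With acetate all 10 of these hypoxia genes had a log2 change above 0, with a median of 0.11. Of them 8 were higher in 4 of 4 pairs, against 16.7% of all genes. Called higher were 4 and called lower 0, against 5.99% and 2.65% of all genes. The called genes were P4ha1, a collagen prolyl hydroxylase (log2 0.16 ± 0.03 SE, adjusted p = 0.0111), Ndrg1 (log2 0.10 ± 0.03, adjusted p = 0.0300), the mitophagy receptor Bnip3 (log2 0.11 ± 0.03, adjusted p = 0.0408) and the mTORC1 inhibitor Ddit4 (log2 0.11 ± 0.03, adjusted p = 0.0412). With median-of-ratios scaling, by edgeR and by DESeq2, Ndrg1, Bnip3 and Ddit4 lost their calls (adjusted p = 0.0543 to 0.226), and P4ha1 kept its call. Of 9 transcription factors and glucose sensors, only Hif1a was called, from 4513 ± 297 to 5029 ± 267 units (log2 0.16 ± 0.03 SE, adjusted p = 0.00889). Txnip stood at 2784 ± 2328 and 2778 ± 2406 units (log2 0.01, adjusted p = 0.968). Of 10 proliferation genes, 0 were called higher and 2 lower, the replication helicase subunits Mcm5 (log2 -0.15, adjusted p = 0.0133) and Mcm6 (log2 -0.10, adjusted p = 0.0310). In all, 7 of these 10 had a log2 change below 0, and the 5 reference genes had a median of -0.02 with none called. Whether these differences go together with those of the glycolysis genes within cells could not be seen in bulk libraries.

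Beyond the 10 genes, the lists of neighboring steps held calls of either sign, with 1 gene called lower in each list. Counts of genes that rose or fell are of called genes. Of all genes, 5.99% were called higher and 2.65% lower. Of 29 other carriers, steps and isozymes of glycolysis, 20 were measured, of which 6 rose (Pfkm, Pgam1, Eno2, Slc2a9, Eno3 and Bpgm), 1 fell (Adpgk), and the median was 0.22. That median includes low genes, 3 of them under 10 units. Of 7 lactate and pyruvate carriers 5 were measured. Bsg, the chaperone that brings lactate carriers to the membrane, rose from 9925 ± 1416 to 11266 ± 1993 units (log2 0.18 ± 0.03 SE, adjusted p = 0.00460), and Mpc2, a subunit of the mitochondrial pyruvate carrier, fell from 384 ± 49.8 to 317 ± 30.3 units (log2 -0.27 ± 0.06, adjusted p = 0.0181). The lactate carrier Slc16a1 stood at 4897 ± 702 and 5177 ± 601 units and did not pass (adjusted p = 0.107), and Slc16a3 was not analysed here. Among 11 measured genes of the pyruvate dehydrogenase complex and its regulators, 1 fell and 0 rose: Pdhb, a subunit of the first enzyme, with a log2 change of -0.11 ± 0.03 (adjusted p = 0.0397). The inhibiting kinase Pdk1 did not pass (log2 0.04, adjusted p = 0.790).

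The branches off the pathway held calls of either sign. Counts of genes that rose or fell are of called genes, beside 5.99% called higher and 2.65% lower of all genes. In the pentose phosphate pathway, whose 8 listed genes were all measured, the transaldolase Taldo1 rose from 2230 ± 286 to 2558 ± 337 units (log2 0.20 ± 0.03 SE, adjusted p = 0.00206) and H6pd rose by 0.15 on the log2 scale (adjusted p = 0.0373), while Pgls, the lactonase, fell (log2 -0.17, adjusted p = 0.0431). For gluconeogenesis 5 of 8 genes were measured and 1 fell, the mitochondrial phosphoenolpyruvate carboxykinase Pck2, from 2877 ± 1359 to 2027 ± 910 units (log2 -0.47 ± 0.06 SE, adjusted p = 7.62e-04). It is also a gene that amino acid stress is known to induce. Of 18 measured genes of the glycogen, hexosamine and galactose branches, 3 rose and 0 fell: Ugp2, which makes UDP-glucose (log2 0.13, adjusted p = 0.0301), Uap1, which makes UDP-N-acetylglucosamine (log2 0.12, adjusted p = 0.0367), and the glycogen phosphorylase Pygb (log2 0.11, adjusted p = 0.0446). Like those of the 10 genes, the calls of all these neighboring genes were lost without the block. Pfkm, Taldo1 and Pck2 passed in all 13 fits with it, Bsg and Hif1a in 11, Pygb, H6pd, Ndrg1 and Ddit4 in 5, and Bnip3 in 4.

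Compared per kilobase of exon, the end of the pathway was far more abundant than its entry. In vehicle the mean level was 12301 units per kilobase for Pkm, 11599 for Ldha, 11036 for Aldoa, 5886 for Pgk1, 5345 for Eno1, 2178 for Gpi1, 1437 for Slc2a1, 734 for Hk2, 529 for Hk1 and 300 for Pfkp. Neighbors in this order overlapped in their range over the 4 vehicle libraries, except that Aldoa lay wholly above Pgk1, Eno1 above Gpi1 and Hk1 above Pfkp. The lowest places rest on long merged exons, 13.4 kb for Pfkp and 8.53 kb for Hk1. In units not divided by length the vehicle means were 4019 for Pfkp, 4382 for Hk2 and 4514 for Hk1, and the ranges of Pfkp and Hk1 overlapped. The most abundant genes at the end of the pathway, Pkm and Ldha, were also among the most even over replicates, whereas Pfkp, the lowest per kilobase, varied most.

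The genes outside the list whose levels followed the mean of the 10 most closely over the 8 libraries were Dag1, Lonp2, Ptpdc1, Jak2 and Map1lc3b, with Pearson's r of 0.998 to 0.999 among 10084 genes compared. The 8 libraries form 4 pairs, and replicate 1 lies apart, so such values are common, and 2526 genes had an r above 0.9. Without replicate 1 the r of Dag1, which encodes dystroglycan, was 0.998 and that of Map1lc3b, an autophagosome protein, 0.995. Over the 4 acetate minus vehicle differences alone, r was 0.861 for Dag1, 0.808 for Lonp2, 0.818 for Ptpdc1, 0.785 for Jak2 and 0.985 for Map1lc3b. These genes were picked on the same libraries, so the values are no separate test. With acetate, Jak2 rose by 0.27, Map1lc3b by 0.22 and Dag1 by 0.10 on the log2 scale (adjusted p = 0.00401, 0.00497 and 0.0239), while Lonp2 and Ptpdc1 did not pass (adjusted p = 0.150 and 0.241).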

How the data were processed

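Poly-A RNA of 8 samples was made into stranded libraries, which the authors aligned with STAR to GRCm38 (mm10) and counted per gene. The submitters' processing notes also name HTSeq, and versions are not given in the sources used here. The deposited values are a normalized signal: the authors divided reads by the library total, so each library sums to 20000000, and kept genes seen in at least 4 of 8 libraries. Dividing by what 1 read is worth gave back whole reads (within 0.02) for 100% of values. The annotation was GENCODE M21 on the same build, which gave 20004 of 20189 identifiers a symbol.

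Treatments were compared with limma 3.58.1 (R 4.3.3), with moderated variances that follow the mean, two-sided, on log2(value + 1), which understates changes of low genes, with the replicate number as a block and Benjamini-Hochberg adjustment over 20189 genes. A shared experiment code in the labels joins same-numbered libraries, so the numbers were taken to pair them. Deviations from group means correlated within pairs at 0.81, 0.27, 0.20 and 0.69 across 18188 genes. Libraries of different numbers were not compared this way, so these values do not test the pairing. The study's own ranking was unpaired. The labels do not say how cultures were separated, and p-values measure the spread between these libraries.

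The 10 genes and the lists beside them were chosen with earlier results of these data known. Named genes were the 10, fixed comparators, and at most 6 called genes a list. Alternatives were other pseudocounts (0.1, 5), filters on the mean (1, 64 units), median-of-ratios and quantile scaling, edgeR 4.0.16 and DESeq2 1.42.0 on recovered reads, no block, and leaving out each pair.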

Additional observations from a re-analysis of the deposited data

Results flagged for a closer look

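A library was marked where its gap to the nearest of the other 3 libraries of its group took up more of the group's range than Dixon's 95% limit for 4 values allows. Among 86 groups, from 43 named genes, 11 were marked, where chance gives about 4.3, and all 11 lay in replicate 1. Groups share libraries, so the marks are not independent.

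Among the 10 glycolysis genes only Pfkp was marked, with a gap of 0.854 of the range in vehicle, where replicate 1 stood at 1575 units and the others at 4502 to 5002. Its isozyme Pfkl had 0.858 in acetate, with 7184 against 11093 to 11738 units. Of the hypoxia genes, P4ha1 had 0.876 in vehicle and 0.859 in acetate, and Ddit4 had 0.947 and 0.969. Ddit4 stood at 1007 units in vehicle replicate 1 and at 8898 to 9338 in the other vehicle libraries. H6pd had 0.972 in vehicle and 0.898 in acetate, and the lactate carrier chaperone Bsg had 0.859 in vehicle. Bpgm was the exception in direction, highest in replicate 1, with 0.839 in vehicle and 0.948 in acetate.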

How the results depend on the processing

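Of 130 recomputed log2 changes of the 10 genes (13 alternatives each), 0 changed sign, 27 lost a call, 6 gained one and 97 kept their side of the threshold. Over the 13 fits with the block, Pfkp passed in 12, Hk1 in 10, Ldha in 8, Hk2 in 7, Pkm in 6, Aldoa in 5 and Gpi1 in 1. The fit without the replicate block called 0 of the 10 and 0 higher and 0 lower of all genes, against 5, 1209 and 535 with it. Of 556 recomputed changes of other named genes, 148 lost a call, 3 gained one and 10 changed sign, none of these in a called gene. The sign changes were those of Txnip (-0.014 with median-of-ratios and with quantile scaling, -0.030 by edgeR, -0.026 by DESeq2, and -0.024 to 0.061 with 1 pair left out), and, with 1 pair left out, of Slc2a3 (-0.053 to 1.15), Pfkl (-0.030 to 0.0023) and Pdk1 (-0.029 to 0.14). Median-of-ratios scaling called 2 of the 10 and 821 genes lower, edgeR called 1086 lower, and DESeq2 called 2 of the 10 and 653 genes higher. Leaving out 1 pair gave 0 to 7 calls among the 10, and among all genes 331 to 1103 higher and 78 to 559 lower. Fewer pairs leave fewer degrees of freedom, and the cause of the other moves was not tested. Of all calls, 69.3% were higher as deposited, 54.9% with median-of-ratios scaling, 54.8% by edgeR, 58.0% by DESeq2 and 60.5% with quantile scaling. Depth did not limit the 10 genes, but shares such as that of Slc2a3, at 0 to 62.5 units, rest on few reads.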
